A study of Mus musculus with 4 samples.

Results

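The C/EBP and AP-1 transcription factors were read on 4 mouse expression arrays as 10 genes: Cebpa, Cebpb, Cebpd and Cebpg of the C/EBP family, Jun, Junb and Jund of the Jun family, and Fos, Fosl1 and Fosl2 of the Fos family. They were found by gene name among the non-control spots, Jund under its older name Jund1, which gave 34 spots of 16 probes, out of 41174 probes for 27670 genes. All 16 probes passed the filter on dim signal. The cells were ZHBTc4, mouse embryonic stem cells engineered so that adding doxycycline turns off Oct4 (Pou5f1). The 2 groups of 2 biological replicates each were cells given 2 µg doxycycline for 48 h (dox; the arrays titled as controls) and cells given doxycycline and tcp over 48 h (dox+TCP). The labels do not spell tcp out. The study's title names LSD1 (Kdm1a), a histone demethylase, and papers on that enzyme commonly use these letters for tranylcypromine, which blocks LSD1 and monoamine oxidases. The treated RNA carried Cy5 on every array, and RNA of ZHBTc4 cells with no treatment named carried Cy3, with no dye swap, so a dye effect and a difference from the reference cannot be told apart. The cells had been grown on irradiated mouse embryonic fibroblasts and then passaged 2 times on gelatin, and the arrays measured bulk RNA, in which fewer cells of a type and less RNA per cell cannot be told apart.

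C/EBP and AP-1 factors are basic leucine zipper (bZIP) proteins, which bind DNA as dimers held together by the zipper. Jun proteins pair with each other or with Fos proteins to form AP-1, whereas Fos proteins need a Jun partner, and C/EBP proteins pair mostly within their own family. Fos, Jun and Junb are immediate early genes, switched on within minutes by growth factor and stress kinases, and Cebpb and Cebpd respond to cytokines and hormones. Cebpa and Cebpb drive fat, liver and myeloid differentiation, and Cebpa and Cebpb together, like Junb and Fosl1, are known to be needed for the placenta.

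The stretches before the gene start are printed for 5 genes on which the results below turn. They are 4 with at least 1 probe that rose in dox cells, and Jun, whose replicates differed most among the Jun family. The stretch of Fosl2, with 1 probe that rose and 1 that fell, is not printed. RefSeq's table for GRCm38.p6 held 8 of the 10 genes. Each stretch is the 200 bases up to the start, with matches to the searched motifs in capitals. The motifs were the AP-1 site TGANTCA, the CRE-type site TGANNTCA, its short core TGACG, the C/EBP-type site TTGCNNAA, the TATA box TATAAA and the CCAAT box CCAAT, each searched on both strands of the 250 bases before the start, and all matches lay in the 200 shown.
Cebpb (chr2:167688715-167688914, plus strand): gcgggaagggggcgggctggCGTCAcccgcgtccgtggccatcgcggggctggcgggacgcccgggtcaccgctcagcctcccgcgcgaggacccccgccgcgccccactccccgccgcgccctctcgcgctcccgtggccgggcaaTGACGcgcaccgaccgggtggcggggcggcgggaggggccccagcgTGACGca
Cebpg (chr7:35056567-35056766, minus strand): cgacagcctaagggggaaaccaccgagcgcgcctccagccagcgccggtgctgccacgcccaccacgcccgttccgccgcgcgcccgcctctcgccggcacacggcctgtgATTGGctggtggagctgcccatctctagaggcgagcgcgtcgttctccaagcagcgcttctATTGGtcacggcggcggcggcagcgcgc
Jun (chr4:95052223-95052422, minus strand): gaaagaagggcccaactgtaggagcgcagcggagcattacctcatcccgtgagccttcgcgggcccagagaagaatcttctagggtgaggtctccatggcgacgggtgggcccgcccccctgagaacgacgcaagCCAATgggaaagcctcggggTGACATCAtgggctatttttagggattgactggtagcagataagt
Jund (chr8:70697539-70697738, plus strand): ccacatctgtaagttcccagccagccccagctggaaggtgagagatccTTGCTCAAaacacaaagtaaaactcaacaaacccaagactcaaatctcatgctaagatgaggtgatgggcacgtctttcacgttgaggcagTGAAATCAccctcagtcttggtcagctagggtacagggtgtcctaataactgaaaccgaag
Fos (chr12:85473690-85473889, plus strand): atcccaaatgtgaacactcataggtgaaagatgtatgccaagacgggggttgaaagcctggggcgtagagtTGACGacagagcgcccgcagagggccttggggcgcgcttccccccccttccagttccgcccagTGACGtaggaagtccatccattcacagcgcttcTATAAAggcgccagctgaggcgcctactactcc

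Cebpb held the short core TGACG at 180, 53 and 7 bases before the start and Fos held it at 129 and 66. Junb, which passed in neither comparison below, held it at 106 and had a CCAAT box at 36. The core was found in 17.8% of the 32851 RefSeq promoters over the 250 bases before the start, the window of all shares given here. Jun held a CRE-type match, TGACATCA, 45 bases before the start and a CCAAT box at 65, and Jund held a CRE-type match at 61 bases and a C/EBP-type match at 152. CRE-type matches stood in 11.9% of all promoters and C/EBP-type matches in 9.56%. Cebpg held 2 CCAAT boxes, at 89 and 28 bases, against 33.9% of promoters with at least 1 match, and Fos and Cebpa held a TATA box (12.4%). The AP-1 letters, in 6.75% of promoters, were in none of the 8 windows of 250 bases. These matches are letters in a window, not measured binding.

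The arrays had medians of 213 to 249 intensity units in Cy5 and 108 to 141 in Cy3, and 68.8% to 78.1% of spots were well above background in a channel. Pou5f1, the gene that doxycycline shuts down, read log2 ratios of -3.38 and -3.62 in dox and -3.29 and -3.28 in dox+TCP, low on every array. Kdm1a, the gene of LSD1, read 0.25 in dox and 0.04 in dox+TCP (adjusted p = 0.163 and 0.822). All 9 measured markers of undifferentiated stem cells passed as lower in dox (median log2 ratio -2.72) and 7 of 9 in dox+TCP (-2.23), in the limma test given below. The 2 that did not pass in dox+TCP also read below 0 there: Nanog at -0.55 (adjusted p = 0.134) and Utf1 at -1.48 (0.0514). The 13 trophoblast markers had a median of 2.07 and 1.26 on the replicate 1 arrays and of 0.21 and 0.17 on the replicate 2 arrays of dox and dox+TCP. Their reference (Cy3) level was higher on the replicate 2 arrays for 11 of 13, by a median of 1.15. The reference therefore was not equal between replicate numbers for these genes. Over all probes the log2 ratios of the 2 dox arrays correlated at r = 0.65, and those of the 2 dox+TCP arrays at 0.86.

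The factors' ratios to the reference went in different directions. Against the reference, 6 of 16 probes rose and 2 fell in dox, and 5 rose and 1 fell in dox+TCP, in limma's test with Benjamini-Hochberg adjustment over 31096 probes at 0.05. Cebpb, 1 probe of Cebpg, Jund and Fos rose in each of the 2 comparisons, which share the reference. Among all probes tested, 6.07% rose and 7.34% fell in dox, and 6.58% rose and 7.44% fell in dox+TCP. The members' median log2 ratio was 0.39 in dox and 0.17 in dox+TCP, against 0.0036 and 0.025 over all probes. These calls rested on the spread of all 4 arrays. With the dox arrays alone, 0 of 16 members and 0 of all probes passed in dox by limma, with 8 and 7253 at an unadjusted p under 0.05. With scan day as a block (dox+TCP replicate 2 was scanned on another day), 0 members and 0 of all probes passed in either comparison. With either dox array left out, 5 members passed in dox, beside 6121 of all probes without replicate 1 and 2896 without replicate 2 (4168 with both). In dox+TCP 9 members then passed, beside 8532 of all probes (4361 with both).

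**Figure D1:**
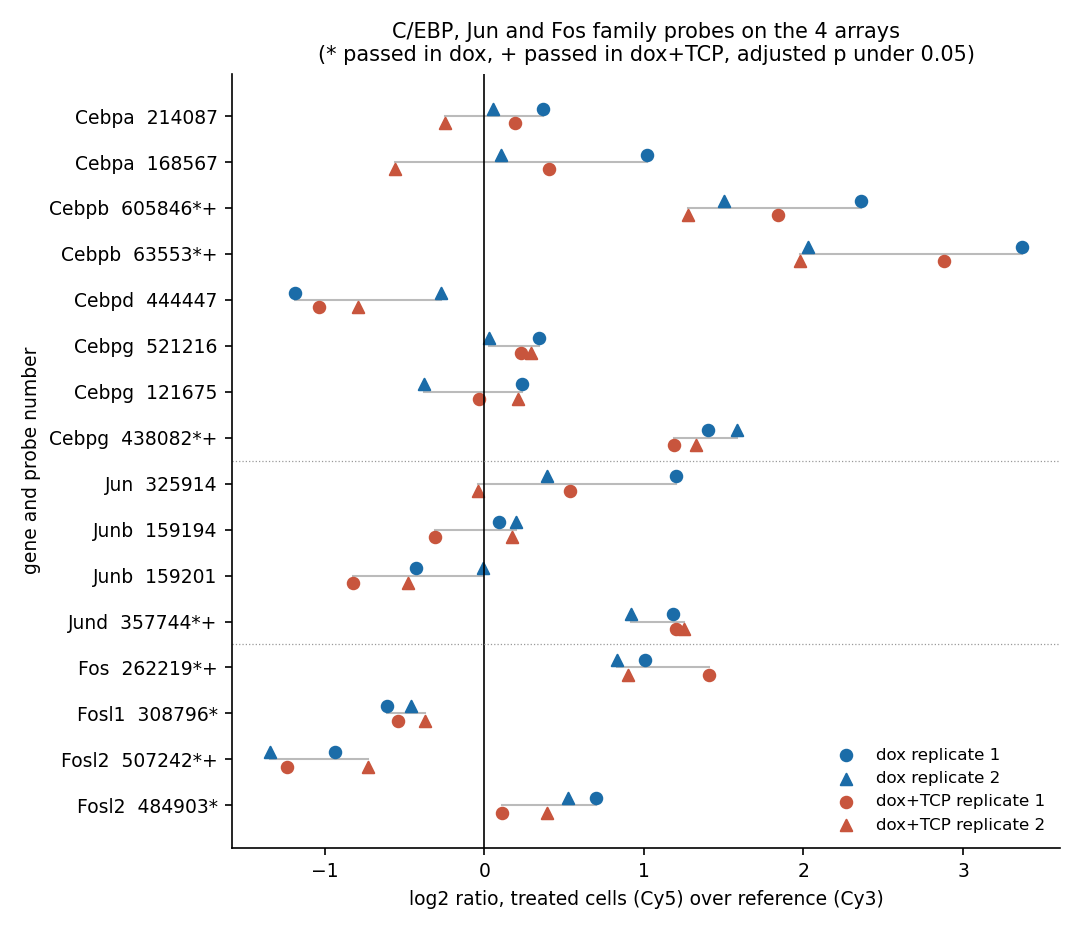
Log2 ratio of treated cells (Cy5) over the reference (Cy3) for each of the 16 probes, 1 point per array, blue for dox and red for dox+TCP, with circles for replicate 1 and triangles for replicate 2. The Cebpb probes lie at 1.28 or higher on every array, the Fosl1 probe and 1 Fosl2 probe lie below 0 on every array, and the other Fosl2 probe lies above 0.

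Cebpb, a C/EBP activator of fat cell, liver and inflammatory genes, had the largest ratios among the members. Its probe at mm7 chr2:167483001-167483059 (A_52_P63553, NM_009883) read 3.37 and 2.03 in dox and 2.88 and 1.98 in dox+TCP. All 4 arrays were far above 0, and within each group the replicate 1 array was the higher. The mean was 6.50-fold over the reference in dox (log2 2.70 ± 0.42 SE, n = 2, adjusted p = 0.0359) and 5.39-fold in dox+TCP (2.43 ± 0.42, adjusted p = 0.0419). The other probe, 538 bases upstream on the plus strand at chr2:167482463-167482522 (A_52_P605846), read 2.36 and 1.50 in dox and 1.84 and 1.28 in dox+TCP. It too rose in dox, 3.81-fold (log2 1.93 ± 0.27, adjusted p = 0.0316), and in dox+TCP, 2.95-fold (1.56 ± 0.27, adjusted p = 0.0427). The probes gave the same direction but not the same size, since A_52_P63553 read 0.53 to 1.04 log2 units higher on each array.

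The replicate difference of Cebpb lay mostly in the reference. For A_52_P63553 the normalized log2 Cy3 level was 10.52 and 10.59 on the replicate 1 arrays and 11.66 and 12.26 on the replicate 2 arrays of dox and dox+TCP. The Cy5 level was 13.89, 13.68, 13.47 and 14.24 for dox replicates 1 and 2 and dox+TCP replicates 1 and 2. The replicate 2 mean was thus 1.40 higher in Cy3 and 0.28 higher in Cy5. The trophoblast markers' reference level shifted the same way, as given above, and their part in the Cebpb ratio was not tested. Over the 16 probes, 12 had a larger shift between replicate numbers in Cy3 than in Cy5 (75%), against 40.0% of all probes tested.

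**Figure D2:**
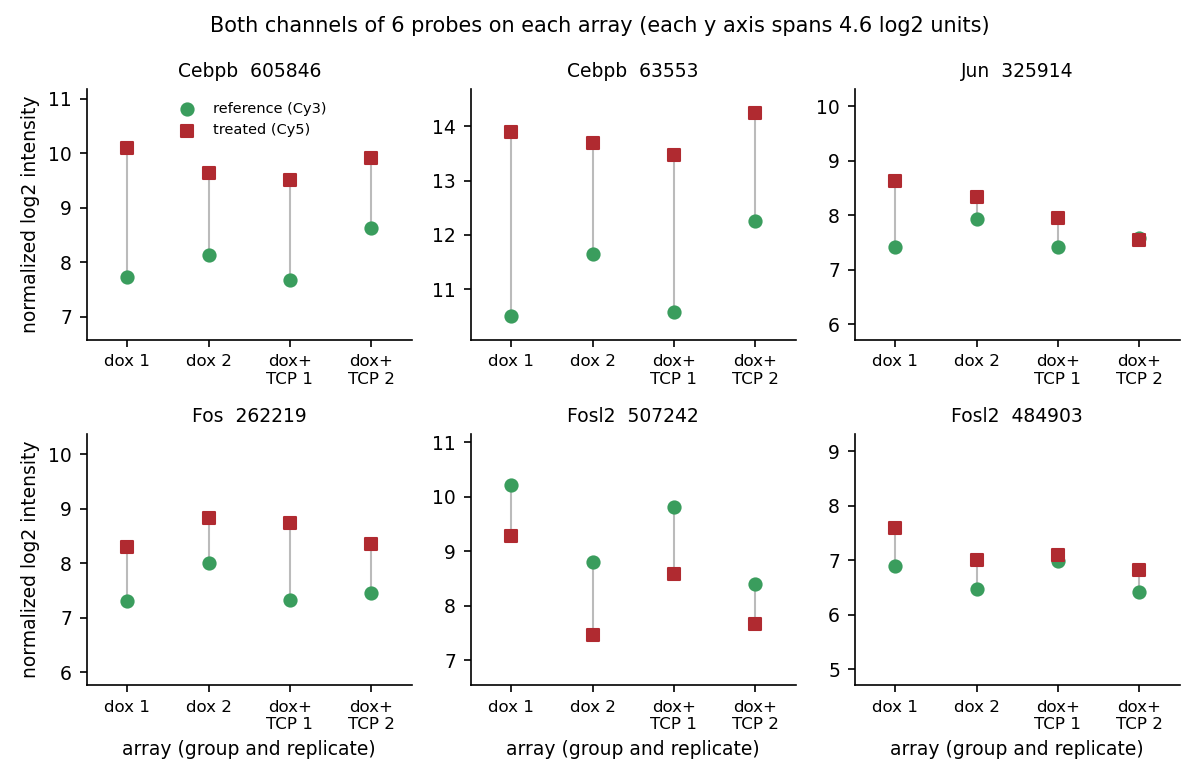
Normalized log2 intensity of the reference (Cy3, green circles) and the treated cells (Cy5, red squares) for 6 probes on each of the 4 arrays, with a grey line for the ratio. For Cebpb A_52_P63553 the reference is at 10.52 and 10.59 on replicate 1 arrays and at 11.66 and 12.26 on replicate 2 arrays, whereas for Fosl2 A_51_P507242 both channels drop together.

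Cebpg, a short C/EBP protein that pairs with other bZIP factors and lacks an activation domain, was read by 3 probes that did not agree. The probe at mm7 chr7:31939516-31939575 on the minus strand (A_52_P438082, NM_009884) read 1.40 and 1.58 in dox and 1.19 and 1.33 in dox+TCP. It was high on all 4 arrays with a small spread, and rose 2.81-fold in dox (log2 1.49 ± 0.098, adjusted p = 0.0158) and 2.39-fold in dox+TCP (1.26 ± 0.098, adjusted p = 0.0184). The probe 2726 bases further downstream, at chr7:31936790-31936849 (A_52_P121675), read 0.24 and -0.38 in dox and -0.04 and 0.21 in dox+TCP, on either side of 0. The probe at chr7:31935956-31936015 (A_51_P521216), 834 bases beyond that, read 0.34 and 0.03 in dox and 0.23 and 0.29 in dox+TCP. Neither passed (adjusted p = 0.847 and 0.355 in dox, 0.785 and 0.215 in dox+TCP). A_52_P438082 exceeded the other two by 0.95 to 1.96 log2 units on every array. The scanner files name all 3 for the same transcript and give no exon structure.

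Cebpd, a C/EBP factor induced by cytokines, read -1.19 and -0.27 in dox and -1.04 and -0.79 in dox+TCP at its probe on chr16:15431723-15431782 (A_51_P444447). All 4 arrays were below 0, but neither mean passed (-0.73 ± 0.25, adjusted p = 0.148 in dox; -0.91 ± 0.25, adjusted p = 0.0971 in dox+TCP). Without dox replicate 2 the dox value was that of 1 array, -1.19. Leaving out either dox array kept the dox+TCP mean at -0.91 and changed only the spread used to test it. Cebpa, which drives liver, fat and myeloid differentiation, spread on both sides of 0. Its probe at chr7:32011212-32011271 (A_52_P168567) read 1.02 and 0.11 in dox and 0.40 and -0.56 in dox+TCP. The probe at chr7:32010056-32010115 (A_51_P214087) read 0.37 and 0.05 in dox and 0.19 and -0.25 in dox+TCP. Neither probe passed in dox (adjusted p = 0.358 and 0.448) or in dox+TCP (0.904 and 0.923).

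Of the Jun proteins, Jund, which is made in most cells and is less tied to acute stimuli than Jun, rose. Its probe at mm7 chr8:69154598-69154657 (A_51_P357744, NM_010592) read 1.18 and 0.92 in dox and 1.20 and 1.25 in dox+TCP, high on every array. That is 2.07-fold in dox (log2 1.05 ± 0.10, n = 2, adjusted p = 0.0214) and 2.34-fold in dox+TCP (1.23 ± 0.10, adjusted p = 0.0193). Its level on the replicate 2 arrays was 0.23 higher in Cy3 and 0.12 higher in Cy5, where the median size of that shift over all probes was 0.21 and 0.26.

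Jun, the AP-1 subunit that pairs most readily with Fos, was printed in 10 spots of 1 probe at chr4:94441779-94441838 (A_51_P325914, NM_010591). With 9 or 10 spots used per array, the spot means were 1.20 and 0.39 in dox and 0.54 and -0.04 in dox+TCP. Spots of 1 array, which share its RNA, scattered by SDs of 0.038 to 0.082, and those of dox replicate 2 (0.31 to 0.53) overlapped those of dox+TCP replicate 1 (0.46 to 0.59). Each replicate 1 array was the higher of its group, and the groups overlapped. The mean did not pass in dox (0.80 ± 0.26, adjusted p = 0.137, unadjusted p = 0.0406) or in dox+TCP (0.25 ± 0.26, adjusted p = 0.581). With median centring in place of loess it passed in dox (1.08, adjusted p = 0.0399). Under that setting 6721 of all probes passed as higher in dox and 1539 as lower, against 1887 and 2281 with loess.

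Junb, a Jun protein known for opposing Jun and for a role in the placenta, did not pass in either comparison. Its 2 probes overlap by 22 bases, at chr8:83563059-83563118 (A_51_P159194) and chr8:83563097-83563156 (A_51_P159201). The former read 0.09 and 0.20 in dox and -0.31 and 0.17 in dox+TCP, and the latter -0.43 and -0.01 in dox and -0.82 and -0.48 in dox+TCP. Although they share bases of 1 transcript, A_51_P159201 was lower on each array, by 0.21 to 0.65 log2 units. Adjusted p was 0.569 and 0.431 in dox and 0.790 and 0.0766 in dox+TCP.

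**Figure D3:**
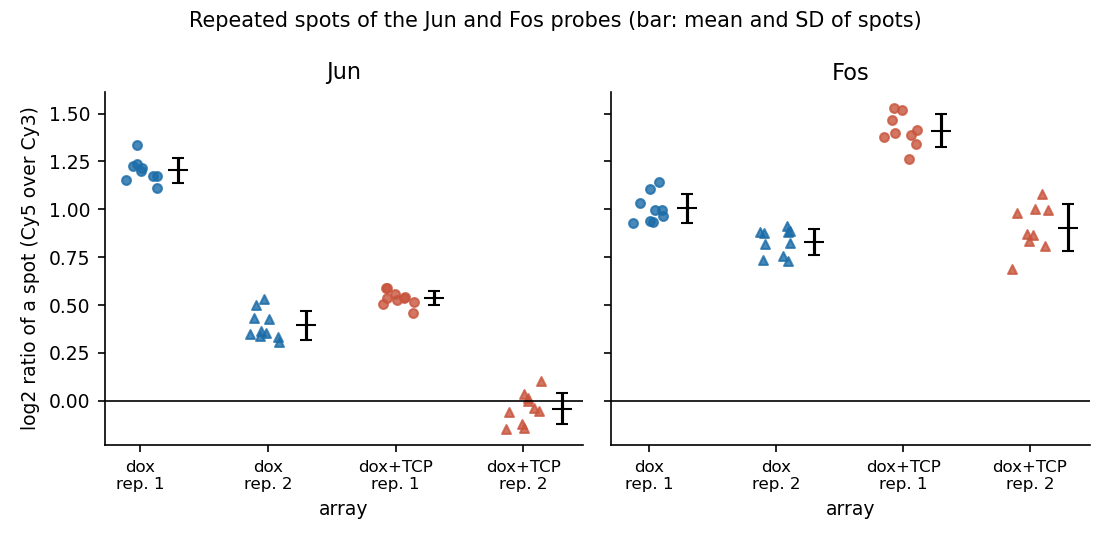
Log2 ratio of each repeated spot of the Jun and Fos probes on the 4 arrays, with the mean and SD of the spots beside them in black. Jun spots centre at 1.20, 0.39, 0.54 and -0.04, those of dox replicate 2 and dox+TCP replicate 1 overlapping, and every Fos spot lies above 0.

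Fos, the founding Fos protein and an immediate early gene, rose. Its probe at mm7 chr12:83478431-83478490 (A_52_P262219, NM_010234), printed in 10 spots, had means of 1.01 and 0.83 in dox and 1.41 and 0.90 in dox+TCP. All were above 0, with spot SDs of 0.069 to 0.12 within an array. The rise was 1.89-fold in dox (log2 0.92 ± 0.16, adjusted p = 0.0423) and 2.23-fold in dox+TCP (1.16 ± 0.16, adjusted p = 0.0294). The scanner software's own ratio, which adds no offset, put it at 1.59 and 1.32 in dox and 2.04 and 1.43 in dox+TCP. Without either dox array the rise in dox did not pass.

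Fosl1, or Fra-1, a Fos protein without the activation domain of Fos, fell in dox. Its probe at chr19:5350302-5350361 (A_51_P308796, NM_010235) read -0.61 and -0.46 in dox and -0.54 and -0.37 in dox+TCP, low on all 4 arrays. The mean was 0.69 of the reference in dox (log2 -0.53 ± 0.098, adjusted p = 0.0474) and 0.73 in dox+TCP, where it did not pass (-0.45 ± 0.098, adjusted p = 0.0614). The signal was low, with normalized log2 Cy5 levels of 6.93 and 7.09 in dox and 6.91 and 6.95 in dox+TCP, though well above background. The scanner software's own ratios, without an offset, were -0.90 and -0.67 in dox and -0.93 and -0.80 in dox+TCP, so the size of the fall is uncertain. The call in dox did not hold without either dox array, or with only local backgrounds over 5 times the median replaced (adjusted p = 0.0525). Leaving out either dox array kept the dox+TCP mean at -0.45 and changed only the spread used to test it.

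The 2 probes of Fosl2, or Fra-2, moved in opposite directions. The probe at mm7 chr5:31185231-31185290 (A_51_P507242, NM_008037) read -0.94 and -1.34 in dox and -1.24 and -0.73 in dox+TCP. It fell to 0.45 of the reference in dox (log2 -1.14 ± 0.18, adjusted p = 0.0380) and to 0.51 in dox+TCP (-0.98 ± 0.18, adjusted p = 0.0477). The probe 4536 bases downstream, at chr5:31189767-31189826 (A_52_P484903), read 0.70 and 0.53 in dox and 0.11 and 0.39 in dox+TCP. It rose 1.53-fold in dox (0.61 ± 0.12, adjusted p = 0.0490) and did not pass in dox+TCP (0.25 ± 0.12, adjusted p = 0.235). The gap between them was 1.12 to 1.87 log2 units on each array. Both channels of A_51_P507242 were lower on the replicate 2 arrays (replicate 2 minus replicate 1 was -1.42 in Cy3 and -1.37 in Cy5), so its ratio moved less than its levels. A_52_P484903 was dim, well above background in Cy3 on 3 of 4 arrays, and the scanner software's own ratios put it at 1.30 and 1.51 in dox. Its call in dox did not hold without either dox array, or with only local backgrounds over 5 times the median replaced (adjusted p = 0.0578), and that of A_51_P507242 did not hold without dox replicate 2. No single direction can be given for Fosl2.

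**Figure D4:**
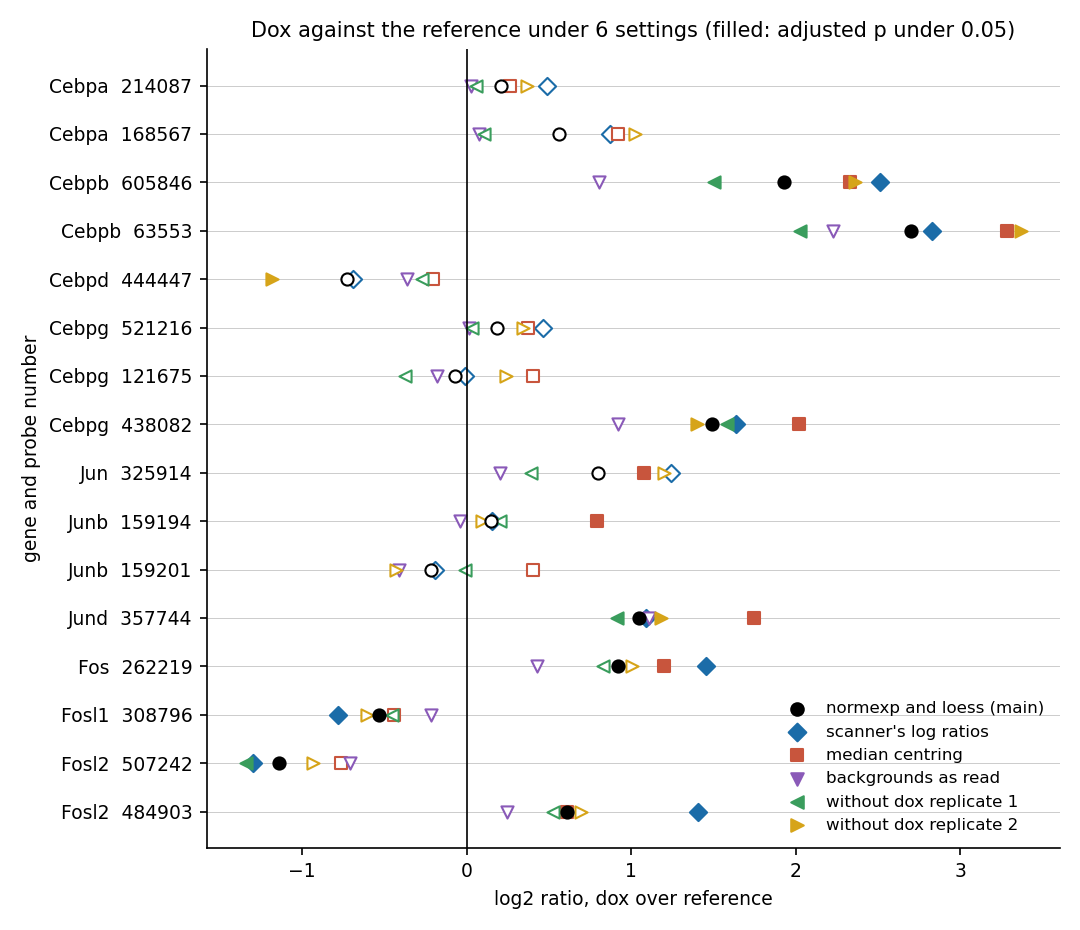
Mean log2 ratio of dox over the reference for each probe under 6 settings, with filled symbols for an adjusted p under 0.05. Cebpb, Cebpg A_52_P438082, Jund and Fos stay above 0 and Fosl1 and Fosl2 A_51_P507242 below 0 under all 6, and none passes with local backgrounds taken as read.

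Between dox+TCP and dox, 0 of the 16 probes passed, as did 0% of all 31096 in either direction. By limma the unadjusted p was under 0.05 for 0 of the 16 and for 1387 of all probes. Both dox+TCP arrays lay below both dox arrays for 3 probes (Cebpg A_52_P438082, Fosl2 A_52_P484903 and Junb A_51_P159201) and above them for 1 (Jund), against 14.5% and 18.2% of all probes, and 12 overlapped. The intervals were wide: the log2 difference was -0.27 (95% interval -1.93 to 1.39) for Cebpb A_52_P63553, -0.55 (-1.60 to 0.50) for Jun and 0.24 (-0.39 to 0.87) for Fos. For Jund it was 0.18 (-0.24 to 0.59) and for Fosl2 A_52_P484903 -0.36 (-0.82 to 0.10). In this fit, which leaves the replicate numbers unpaired, differences of that size were not detectable with 2 arrays a group. On the slide that held both replicate 1 arrays, dox+TCP minus dox was -0.49 for Cebpb A_52_P63553, -0.67 for Jun, 0.41 for Fos and 0.02 for Jund. Between the replicate 2 arrays, on separate slides, it was -0.05, -0.43, 0.07 and 0.34. The dox+TCP replicate 2 array was scanned on another day from the remaining 3, so the scan day and that array cannot be told apart.

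Among 30 other bZIP genes, 6 rose and 1 fell in dox, and 6 rose and 0 fell in dox+TCP. For this list and those below, the shares of all probes were 6.07% higher and 7.34% lower in dox. In dox+TCP they were 6.58% and 7.44%. By limma, 14 of the 30 had an unadjusted p under 0.05 in dox and 18 in dox+TCP, against 9990 and 10046 of all 31096 probes. The median log2 ratio was 0.29 in dox and 0.51 in dox+TCP. Ddit3 (CHOP), a C/EBP relative of the stress response that pairs with C/EBP proteins, read 1.99 and 2.77 in dox and 3.04 and 3.49 in dox+TCP. It rose in dox (log2 2.38 ± 0.24, adjusted p = 0.0218) and in dox+TCP (3.27 ± 0.24, adjusted p = 0.0184), and the difference between them did not pass. Jdp2, which pairs with Jun and represses AP-1 targets, rose by 1.66 ± 0.17 in dox (adjusted p = 0.0214) and 2.20 ± 0.17 in dox+TCP (0.0184). Atf3, a stress-induced partner of Jun proteins, rose by 1.44 ± 0.086 (adjusted p = 0.0158) and 1.12 ± 0.086 (0.0184). Mafk, a small Maf protein, rose by 0.90 in dox and 0.89 in dox+TCP (adjusted p = 0.0209 and 0.0208), and Tef, a PAR bZIP activator, by 1.39 and 2.14 (0.0305 and 0.0196). The gene that fell in dox was Hlf, also a PAR bZIP factor, named after its value was seen.

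**Figure D5:**
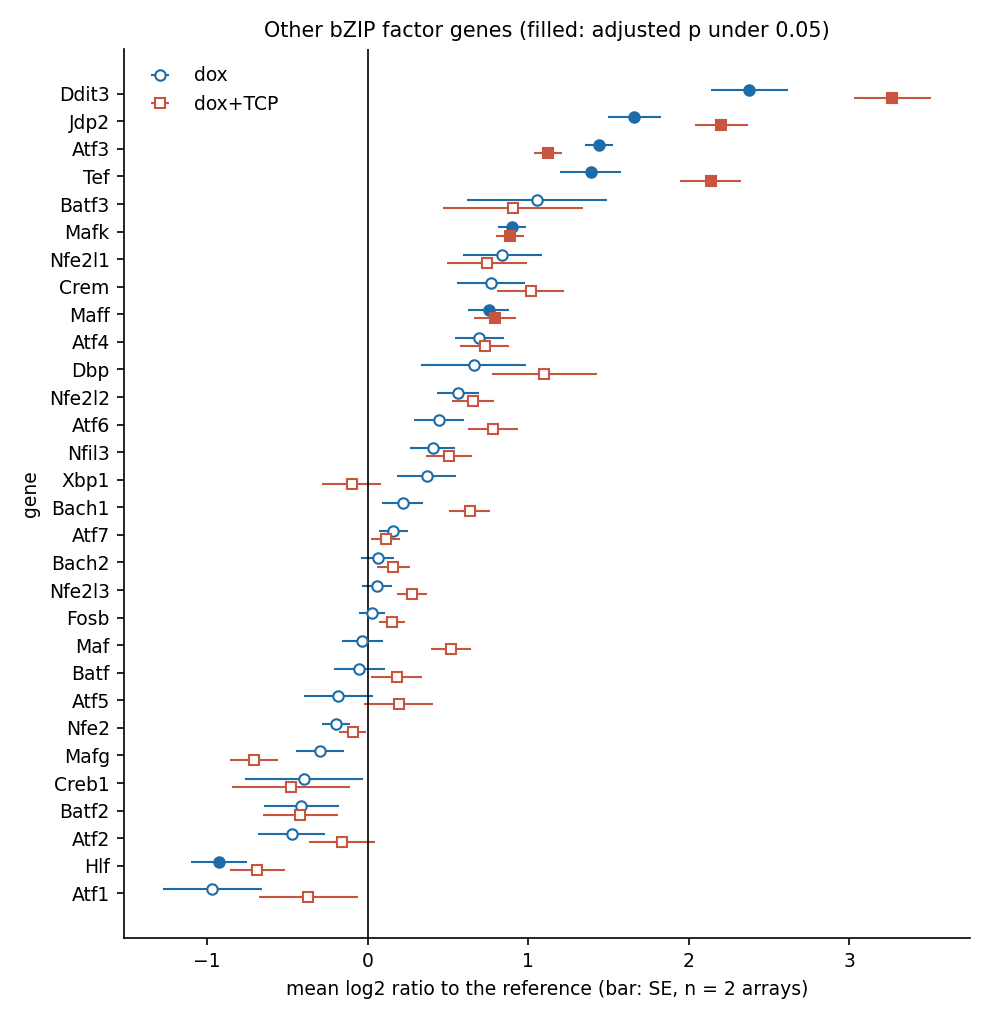
Mean log2 ratio over 2 arrays to the reference of 30 other bZIP genes, circles for dox and squares for dox+TCP, filled where the adjusted p was under 0.05. Bars are the SE of the limma fit on all 4 arrays, which is the same for both groups of a gene. Ddit3 and Jdp2 stand highest in both groups, and most genes lie within 1 log2 unit of 0.

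Of 30 ERK, JNK and p38 kinases and phosphatases, which set AP-1 activity, 3 rose and 5 fell in dox and 3 rose and 3 fell in dox+TCP. Dusp6, a phosphatase that removes ERK phosphorylation, read -2.53 and -3.58 in dox and -3.37 and -3.87 in dox+TCP, low on every array (adjusted p = 0.0213 and 0.0192). Dusp16, a phosphatase of JNK and p38, rose by 0.93 and 1.03 (adjusted p = 0.0295 and 0.0257), and Mapk13, or p38 delta, by 1.42 and 1.08 (0.0195 and 0.0260). Map2k3, a p38 kinase activator, fell in both (-0.55 and -0.78, adjusted p = 0.0479 and 0.0276). Dusp1 rose by 0.92 in dox (adjusted p = 0.0368) and read 0.38 in dox+TCP, where it did not pass (0.176).

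Of 28 other immediate early genes, 4 rose and 7 fell in dox and 3 rose and 7 fell in dox+TCP, so Fos was not matched by a common direction in this list. Ier2 read between -2.19 and -1.85 on the 4 arrays (adjusted p = 0.0158 and 0.0182). Trib1, a pseudokinase that promotes breakdown of C/EBP proteins, fell by 1.63 in dox and by 1.61 in dox+TCP (adjusted p = 0.0153 and 0.0179). Gadd45b, a stress gene, rose by 2.18 and 2.53 (adjusted p = 0.0190 and 0.0184). Ccn1 rose by 1.26 in dox and 1.03 in dox+TCP (adjusted p = 0.0204 and 0.0245), and Btg1, an inhibitor of cell growth, by 1.23 and 1.72 (0.0230 and 0.0184).

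Genes listed as targets of the factors were mixed. Of 28 AP-1 targets, 2 rose and 5 fell in dox and 3 rose and 3 fell in dox+TCP, with medians of -0.012 and 0.056. Ccnd1, the cyclin D1 gene, fell (-2.13 in dox and -1.74 in dox+TCP, adjusted p = 0.0175 and 0.0202), Igfbp3 fell (-1.37 and -1.39, 0.0193 and 0.0196), and Plat, tissue plasminogen activator, rose by 1.12 and 1.31 (0.0253 and 0.0218). Ezr, or ezrin, rose by 0.86 in dox (0.0240) and read 0.34 in dox+TCP, where it did not pass (0.104), and Timp1 fell in both (-1.95 and -1.57, 0.0259 and 0.0342). Of 28 C/EBP targets, 2 rose, 1 fell and 25 did not pass in dox, and 5 rose, 1 fell and 22 did not pass in dox+TCP. Of all probes, 6.07% rose and 7.34% fell in dox, and 6.58% rose and 7.44% fell in dox+TCP. Scd1, a fatty acid desaturase, rose by 1.74 and 2.14 (adjusted p = 0.0230 and 0.0196), and Gadd45g by 0.50 and 1.02 (0.0496 and 0.0201). Ptges, a prostaglandin E synthase, read 0.13 and 0.26 in dox and 1.75 and 1.22 in dox+TCP and rose in the latter (adjusted p = 0.0227), as did Lpin1, a lipid enzyme (1.78, adjusted p = 0.0265; 0.89 and 0.0797 in dox). Adipoq, or adiponectin, was not well above background on any treated array. Its log2 ratio was -0.72 ± 0.091 in dox and -0.67 ± 0.091 in dox+TCP (adjusted p = 0.0275 and 0.0293). With the treated signal that close to background, the size of the fall is uncertain, and it is open to dye bias. In dox+TCP against dox, 0 of the 180 entries of the 8 lists passed by limma, and 11 had an unadjusted p under 0.05.

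Fibroblast markers of feeder cells had medians of -0.25 and 0.10 in dox and -0.03 and 0.08 in dox+TCP, and 0 of 14 rose and 1 fell in dox and 1 rose and 1 fell in dox+TCP. Their reference (Cy3) level was higher on the replicate 2 arrays for 5 of 14, with a median shift of -0.17. The shift was -2.36 for Col1a1 and -1.53 for Col1a2, and 0.58 for Pdgfra, the largest rise. The part of these markers in the members' ratios was not tested.

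The genes whose ratios lay nearest to the leading probe of each family, by Euclidean distance over the 4 arrays among 16821 genes, were as follows. Nearest to Cebpb were Igf2 (distance 0.35), Cmtm8 (0.40), Mbp (0.61), Prtg (0.73) and Sh3bp5 (0.76). Nearest to Jund were Rtn3 (0.17), Fnip2 (0.18), Galk1 (0.19), Rcbtb2 (0.22) and Sdc4 (0.22). Nearest to Fosl2 A_51_P507242 were Usp7 (0.11), Stra6 (0.15), Zfp101 (0.22), 1700049E17Rik1 (0.23) and Metap1d (0.26). With 4 arrays such likeness is a description only.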

How the data were processed

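RNA of 4 samples was hybridised to 2-colour Agilent mouse arrays. Per the file headers, the deposited scanner files hold Cy5 and Cy3 intensity per spot and the software's log10 ratio (Feature Extraction 10.1.1.1), and probe positions refer to mm7. The series matrix values matched that deposited log10 ratio within 0.005.

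From mean signals and median local backgrounds, with backgrounds over 2 times an array's median replaced by it (a step chosen after the files were seen by an earlier analysis), normexp (offset 50) and loess were run in limma 3.58.1 (R 4.3.3), with control spots at weight 0 and flagged spots left out (119 to 176 per array). The offset shrinks the ratios of dim spots. Spots of a probe were averaged. A probe was tested if well above background in Cy5 on both arrays of a group or in Cy3 on all 4 arrays, which left 31096 probes, and group means were fitted on all 4 arrays with eBayes and Benjamini-Hochberg adjustment. Channel levels came from Aquantile. Number of arrays, not depth, limits precision. The fit was tested on simulated data.

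All member probes are named. Other lists are counted by each gene's brightest tested probe, with up to 4 called genes named per comparison by adjusted p, and the 5 nearest genes are given for the leading probe of each family. The alternatives tried were background, normalization, filter, probe, spread, batch, pairing and leave-one-out settings. Members and lists were chosen with earlier results of these data known. Symbols were updated through RefSeq names (GRCm38.p6), from which no coordinates were set against mm7.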

Additional observations from a re-analysis of the deposited data

How the results depend on the processing

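Of the 19 alternatives, no background subtraction, an offset of 16, a limit of 5 times the median for local backgrounds, the scanner software's ratios, the series matrix values, Aquantile, both filters on dim probes and the brightest probe per gene kept the counts of passing member and all probes within 1.5 times the main ones (8 and 6 of 16 members, 4168 and 4361 of all). Single calls still changed: Fosl1 and Fosl2 A_52_P484903 did not pass in dox with the limit of 5 times, and Fosl2 A_51_P507242 did not pass in dox+TCP with no background subtraction (adjusted p = 0.0506) or no filter (0.0514). With local backgrounds exactly as read, 0 members and 0 of all probes passed in dox and 0 and 0 in dox+TCP by limma, and 2 and 3 members and 2250 and 2365 of all probes had an unadjusted p under 0.05. With scan day as a block, 0 members and 0 of all probes passed in dox and 0 and 0 in dox+TCP, with 8 and 7 members and 7253 and 4947 of all probes at an unadjusted p under 0.05. With each group's arrays alone, 0 members and 0 of all probes passed in dox, with 8 and 7253 at an unadjusted p under 0.05, whereas 9 members and 8532 of all probes passed in dox+TCP. Averaging a gene's probes left 5 of 10 member genes passing in dox, beside 3201 of all genes, and 4 in dox+TCP, beside 3363 of all genes. Median centring moved the median of all probes to 0.16 in dox and 0.15 in dox+TCP, with 8260 probes passing in dox (6721 higher, 1539 lower) and 6557 in dox+TCP (5043 higher, 1514 lower), against 1887 higher and 2281 lower and 2047 higher and 2314 lower under loess. Jun and Junb A_51_P159194 passed as higher in dox under it, and the falls of Fosl1 and Fosl2 A_51_P507242 did not pass. Leaving out an array gave 0 to 5 members and 0 to 6121 of all probes in dox, and 0 to 9 members and 0 to 8532 of all probes in dox+TCP, the 0 coming without either dox+TCP array (a lone array was assumed to vary like the other group). With 2 pairs the replicate numbers were not taken to pair the samples (correlation of deviations 0.45). Log2 ratios of arrays with the same replicate number correlated at 0.87 (replicate 1, on 1 slide) and 0.80 (replicate 2). The replicate block gave 10 and 9 members and 6727 and 6959 of all probes, and 0 in dox+TCP against dox. There 3 members and 2278 of all probes had an unadjusted p under 0.05 by limma, against 0 and 1387 without the block. Passing members gained under the block were Jun (adjusted p = 0.0230) and Cebpa A_52_P168567 in dox, both higher, and Cebpd, Fosl1 and Junb A_51_P159201 in dox+TCP, all lower. The comparison of dox+TCP with dox had 0 passing probes under every alternative run. Slide as a random block could not be fitted, since 1 of 3 slides held 2 arrays.

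Values that changed sign had not passed, and the causes were not tested. In dox+TCP, Cebpa A_51_P214087 read 0.044 with no background subtraction, 0.00713 with backgrounds as read, 0.075 by the scanner's ratios, 0.075 by the series matrix and 0.19 with the scan day block. Cebpa A_52_P168567 read 0.030 with backgrounds as read, 0.17 with median centring and 0.40 with the scan day block, and Cebpg A_52_P121675 read -0.036 with that block. In dox, Junb A_51_P159194 read -0.043 with backgrounds as read, and median centring gave 0.40 for Junb A_51_P159201 and 0.40 for Cebpg A_52_P121675. It gave 0.40 for Junb A_51_P159194 in dox+TCP. For dox+TCP minus dox, backgrounds as read gave -0.21 for Fos and 0.061 for Cebpb A_52_P63553. Fosl1 was -0.083 by the scanner's ratios, -0.083 by the series matrix and -0.00802 with the scan day block, which also gave -0.100 for Fosl2 A_51_P507242 and 0.18 for Cebpb A_52_P63553.

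Leaving out an array in turn, the dox+TCP ratio ranged from -0.25 to 0.19 for Cebpa A_51_P214087, from -0.56 to 0.40 for Cebpa A_52_P168567, from -0.036 to 0.21 for Cebpg A_52_P121675, from -0.31 to 0.17 for Junb A_51_P159194 and from -0.040 to 0.54 for Jun. The dox ratio of Cebpg A_52_P121675 ranged from -0.38 to 0.24. Dox+TCP minus dox ranged from -0.80 to 0.058 for Cebpb A_52_P605846, from -0.94 to 0.40 for Cebpb A_52_P63553, from -0.64 to 0.27 for Cebpd, from -0.080 to 0.23 for Cebpg A_51_P521216, from -0.15 to 0.46 for Cebpg A_52_P121675, from -0.45 to 0.024 for Junb A_51_P159194, from -0.015 to 0.49 for Fos, from -0.00802 to 0.16 for Fosl1 and from -0.100 to 0.41 for Fosl2 A_51_P507242.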
